A study of Mus musculus with 36 samples.

Results

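The genes described here are 10 heat shock chaperones. They are the inducible HSP70 pair Hspa1a and Hspa1b, the constitutive HSP70 Hspa8, the HSP110 gene Hsph1, the J-domain gene Dnajb1, the cytosolic HSP90 pair Hsp90aa1 and Hsp90ab1, the small heat shock protein gene Hspb1, and the mitochondrial chaperonin genes Hspd1 and Hspe1. They were chosen by symbol and matched to Ensembl identifiers, out of 17536 genes counted in liver or in eWAT, the white adipose tissue that lies along the epididymis. The liver analysis covered 9 of them among 14052 genes, and the eWAT analysis covered all 10 among 16690 genes. Hspa1a is not among the 14052 liver genes, so it could be analysed in eWAT only. The members, and the gene lists used below, were chosen with earlier results of these data known.

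The mice were wild-type C57BL/6 males of the F0 generation, 24 weeks old, and all ate chow until 6 weeks of age. Mice of the HFLF group then ate a high-fat diet for 9 weeks and a low-fat diet for 9 weeks. Mice of the HF group ate the high-fat diet for 18 weeks, and mice of the LF group ate the low-fat diet for 18 weeks. Each diet had 6 libraries per tissue, 36 libraries in all. No label states that the libraries of a group came from different mice, so the p-values measure the spread between these libraries, which may be partly technical. The series text gives 4 to 6 per group, so a group may hold fewer than 6 mice. The high-fat group is spelled HFD in one label and HLD in another, and is read here as the same diet. The comparisons ask what a long high-fat diet changed, and what remained different after the switch back to low-fat diet.

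Heat shock chaperones bind unfolded or partly folded proteins and help them fold, refold or reach a protease. In the cytosol, J-domain proteins hand clients to HSP70, HSP110 proteins release the nucleotide from HSP70 so that the client can leave, and HSP90 finishes the folding of kinases, steroid hormone receptors and other signalling proteins. HSPD1 and its lid HSPE1 form the folding chamber of the mitochondrial matrix, and small heat shock proteins such as HSPB1 hold unfolded clients. The transcription factor HSF1 is held inactive by chaperones in unstressed cells and, when released, binds heat shock elements in the promoters of these genes. Liver makes most plasma proteins and carries a heavy folding load, and heat shock genes in mouse liver are also known to follow daily feeding and body temperature.

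The promoters are shown because the members that differed most between diets in liver share such an element with members that differed least. A heat shock element is a run of alternating units GAA and TTC. A pair of units was searched as GAANNTTC or TTCNNGAA, each of which reads the same on both strands, and a run of 3 units as GAANNTTCNNGAA or TTCNNGAANNTTC, which contains the pairs. RefSeq promoters (GRCm38.p6) matched 7 of the 10 members by symbol, and Hspa8, Hsp90aa1 and Hsp90ab1 are named only. In the 250 bases before the start site, 6 of these 7 members held a pair of units, against 12.8% of all 32851 promoter windows in the table. A run of 3 units stood in 2 of the 7, Hspd1 and Hspe1, against 0.466% of all windows. Capitals mark the matched units in the stretches below, which are written 5′ to 3′ on the strand of the gene.
Hspa1a, chr17:34972207-34972286, minus strand: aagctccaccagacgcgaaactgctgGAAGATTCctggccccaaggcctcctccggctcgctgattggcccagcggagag
Hspa1b, chr17:34959289-34959368, minus strand: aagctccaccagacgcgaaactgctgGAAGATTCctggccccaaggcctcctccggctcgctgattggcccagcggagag
Hspb1, chr5:135887789-135887838, plus strand: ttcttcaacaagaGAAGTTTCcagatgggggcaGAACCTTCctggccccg
Hsph1, chr5:149636347-149636396, minus strand: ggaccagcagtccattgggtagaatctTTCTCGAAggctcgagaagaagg
Hspe1, chr1:55088038-55088087, plus strand: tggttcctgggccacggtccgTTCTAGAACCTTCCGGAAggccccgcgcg
The Hspa1a and Hspa1b stretches are identical, and their 250 bases before the start differ at 3 positions, so that 98.8% are the same. Hspd1 and Hspe1 stand head to head and share the stretch printed for Hspe1, where 2 overlapping matches to the run of 3 make 4 alternating units in all. Neither of the 2 windows of Dnajb1 held a match, nor did the other window of Hspd1, which says only that these letters are not in those windows.

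Reads can be shared between members and near copies. Hspa1a (chromosome 17, 34969190 to 34972156, GRCm38) and Hspa1b (chromosome 17, 34956436 to 34959238) are single-exon neighbours on the minus strand, separated by 9952 bases. Their longest open reading frames agree at 1918 of 1929 aligned bases (99.4%). Of the different 50-base stretches in the Hspa1b transcript, 62.3% also occur in Hspa1a, so how a read was divided between these genes depends on the counting software, which the sources at hand do not name. Stretches shared with processed pseudogenes made up 48.8% of Hspb1 (Hsp25-ps1), 41.8% of Hsp90aa1 (Gm12346), 38.0% of Hspd1 (Hspd1-ps3) and 34.6% of Hspa8 (Gm15459). The copies were counted at low levels: Gm15459 reached 5.53 CPM, a count scaled to library depth, in LF liver libraries, and the other copies tested stayed at or under 1.62 CPM. Hspd1 and Hspe1 overlap by 112 exon bases on opposite strands, and Hspa1a overlaps Gm20481 on the other strand by 564. The counting strand is not given either, so reads in these overlaps cannot be told apart.

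Libraries held 11.7 to 23.3 M counts in liver and 8.94 to 31.2 M in eWAT. Levels are CPM scaled by the TMM method within each tissue. A gene is said to rise or fall where its p from edgeR's quasi-likelihood test, with Benjamini-Hochberg adjustment over every gene of the tissue, was under 0.05. Alb, the albumin gene, stood at 50386 to 82283 CPM in liver, and Adipoq, the adiponectin gene, at 790 to 4019 CPM in eWAT. In liver, LF libraries 1 to 4 stood apart: the metallothionein gene Mt2 stood at 0.601 to 9.33 CPM in HFLF and HF, against 385, 422, 354 and 381 CPM in LF libraries 1 to 4 and 2.04 and 0.892 CPM in LF libraries 5 and 6. In eWAT, 6 libraries (HFLF 4 and 6, HF 1, and LF 3, 4 and 5) stood apart by transcripts of other organs. The source of these transcripts was not tested. Prm2, a sperm protamine gene, reached 333 CPM in HF library 1 and 124 CPM in LF library 4, and Alb reached 666 CPM in LF library 5. The line is not sharp: Alb stood at 135 CPM in HFLF library 4 and at 99.3 CPM in HF library 3, which is not among the 6.

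Divided by exon length, the members covered a wide range of levels in LF livers, and the order below is of CPM per kb (mean ± SD, n = 6). Hsp90ab1 led with 552 ± 53.8, followed by Hspa8 with 222 ± 52.5 and Hspd1 with 131 ± 15.1. Hspe1 (92.0 ± 10.9), Hsp90aa1 (76.5 ± 15.5) and Hspb1 (60.4 ± 27.4) followed, and the library ranges of these 3 genes overlapped. Hsph1 (22.3 ± 8.54), Hspa1b (16.6 ± 17.2) and Dnajb1 (15.7 ± 6.36) were the lowest and overlapped each other. In LF eWAT the order, scaled separately, began likewise with Hsp90ab1 (412 ± 54.5) and Hspa8 (155 ± 26.1), with Hspb1 (116 ± 18.3) next and Hspd1 (83.6 ± 15.6) after it, though their library ranges overlapped. Hspa1b (5.59 ± 2.18) and Hspa1a (2.38 ± 0.811) stood at the low end in eWAT.

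In liver, 8 of the 9 members fell in HF against LF and 0 rose, and all 9 fell in HFLF against LF. Of all liver genes, 18.5% fell and 16.3% rose in HF against LF, and 12.4% fell and 10.2% rose in HFLF against LF. Since the members were chosen with earlier results of these data known, setting them beside these shares is a description and not a test. The median log2 fold change of the members was -0.95 in HF and -1.08 in HFLF, against 0.0 for all genes in both comparisons, which share the LF libraries. Over all genes, 2295 were higher and 2596 lower in HF. With upper-quartile factors, a scaling that moved the median of all genes by 0.07, these numbers were 2952 and 1869, and 8 members still fell. For HFLF against LF they were 1432 and 1744, or 1866 and 1158 with that scaling. In bulk tissue, less RNA per cell and fewer cells of a type cannot be told apart.

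**Figure D1:**
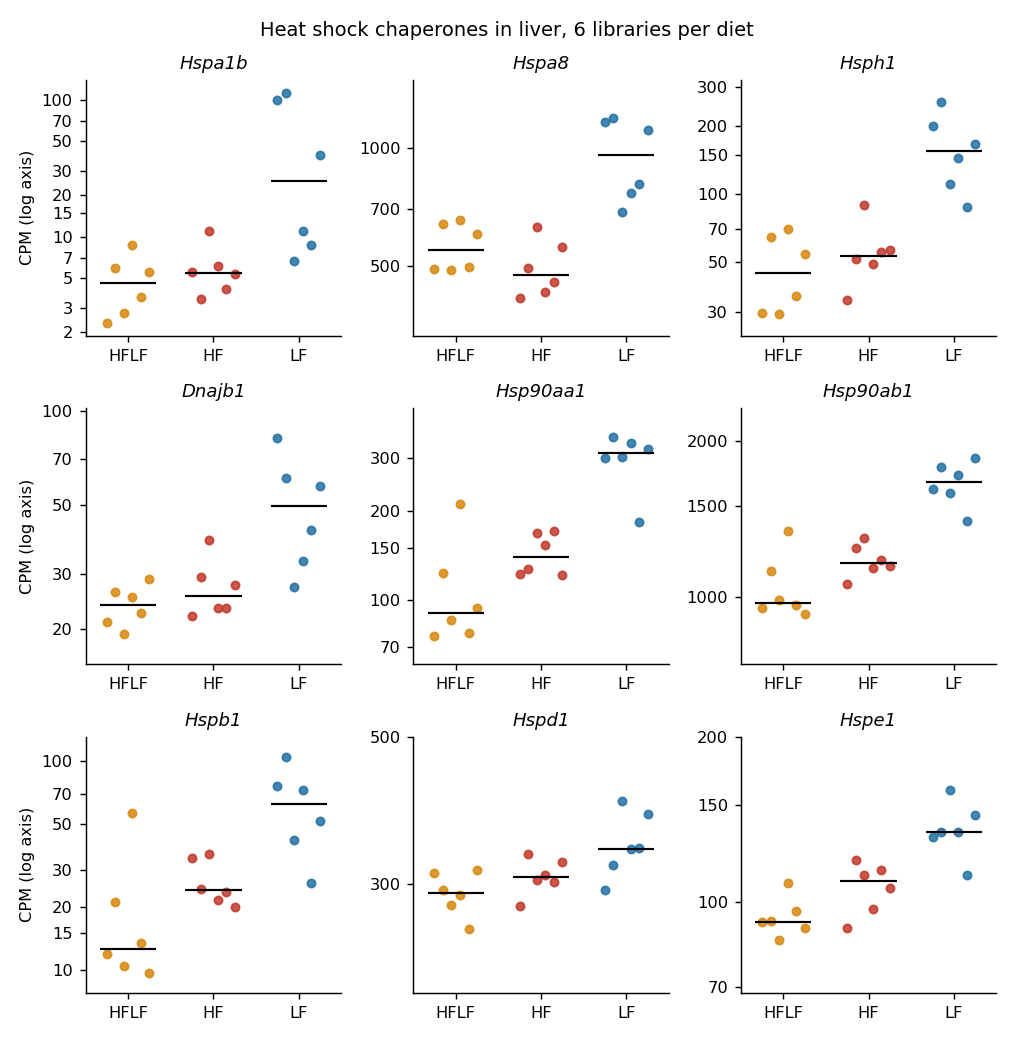
Level of each member in liver, in CPM on a log axis, for the HFLF, HF and LF diets; each point is 1 library (in order of its number from left to right) and each bar the median of 6. Hspa8 and Hsp90ab1 do not overlap between either high-fat group and LF, and Hspa1b spans 6.62 to 112 CPM in LF.

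Among the HSP70 genes, Hspa1b, made mostly under stress, had the largest fold change of the members. It stood at 2.35, 4.55 and 8.64 CPM in HFLF livers and at 3.48, 5.38 and 11 CPM in HF livers (lowest, median and highest of 6), against 6.62, 25.3 and 112 CPM in LF livers. The LF livers spread most: libraries 1 and 2 held 100 and 112 CPM, library 6 held 39.7 CPM, and libraries 3, 4 and 5 held 6.62, 11 and 8.71 CPM, none above the highest HF library at this rounding. The log2 fold change was -2.98 ± 0.66 (SE) in HF (adjusted p = 0.00324) and -3.29 ± 0.68 in HFLF (adjusted p = 0.00377). Hspa1a is not among the liver genes, so the pair could not be summed there. How reads of the pair were divided in liver is not known. Hspa8, the constitutive HSP70 that serves folding and clathrin uncoating, stood at 488, 550 and 654 CPM in HFLF livers and at 414, 475 and 627 CPM in HF livers, against 686, 961 and 1194 CPM in LF livers. Every HFLF and HF library lay below every LF library. Hspa8 fell by 0.95 ± 0.15 on the log2 scale in HF (adjusted p = 0.00027) and by 0.77 ± 0.15 in HFLF (adjusted p = 0.00216).

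The partners of HSP70 fell too. Hsph1, the HSP110 exchange factor, stood at 29.4, 44.9 and 70.4 CPM in HFLF livers and at 34.0, 53.5 and 89.6 CPM in HF livers, against 87.6, 156 and 258 CPM in LF livers. HFLF and LF did not overlap, and of the HF libraries only the highest, library 3, lay above the lowest LF library. Its log2 fold change was -1.53 ± 0.29 in HF (adjusted p = 0.00125) and -1.77 ± 0.29 in HFLF (adjusted p = 0.00118). Dnajb1, the J-domain protein that activates HSP70, stood at 19.2, 23.9 and 29.0 CPM in HFLF livers and at 21.9, 25.5 and 38.7 CPM in HF livers, against 27.3, 49.5 and 81.8 CPM in LF livers. LF libraries 3 and 4 (27.3 and 32.9 CPM) lay within the HF range. Dnajb1 fell by 0.88 ± 0.22 in HF (adjusted p = 0.00609) and by 1.08 ± 0.22 in HFLF (adjusted p = 0.00352) on the log2 scale.

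Both cytosolic HSP90 genes fell; the difference between their changes was not tested. Hsp90aa1, the inducible form, stood at 76.2, 90.5 and 211 CPM in HFLF livers and at 122, 140 and 171 CPM in HF livers, against 184, 313 and 354 CPM in LF livers. HF lay wholly below LF, while HFLF library 4, at 211 CPM, lay above LF library 5, at 184 CPM. The log2 fold change was -1.06 ± 0.22 in HF (adjusted p = 0.00219) and -1.43 ± 0.23 in HFLF (adjusted p = 0.000869). Hsp90ab1, the constitutive form and the most abundant member, stood at 926, 975 and 1338 CPM in HFLF livers and at 1059, 1163 and 1297 CPM in HF livers, against 1398, 1665 and 1850 CPM in LF livers. Neither HFLF nor HF overlapped LF, and Hsp90ab1 fell by 0.49 ± 0.10 in HF (adjusted p = 0.00118) and by 0.66 ± 0.10 in HFLF (adjusted p = 0.000479).

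Hspb1, whose small heat shock protein holds unfolded clients, stood at 9.71, 12.6 and 56.6 CPM in HFLF livers and at 20, 24.1 and 35.9 CPM in HF livers, against 26.1, 62.2 and 105 CPM in LF livers. HFLF library 4, at 56.6 CPM, lay far above the other HFLF libraries and within LF. The log2 fold change was -1.22 ± 0.41 in HF (adjusted p = 0.0308) and -1.61 ± 0.42 in HFLF (adjusted p = 0.0134). The HF call was the least firm of those that passed: it was lost without LF library 1, 2 or 4 (-1.16, -1.01 and -1.17) and without HF library 2, 4, 5 or 6 (-1.20, -1.17, -1.19 and -1.15). Without HFLF library 4 the fall in HFLF stood at -2.22.

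The mitochondrial chaperonin genes moved least. Hspe1, the lid of the chamber, stood at 85.2, 92.0 and 108 CPM in HFLF livers and at 89.6, 109 and 119 CPM in HF livers, against 112, 134 and 160 CPM in LF livers. HFLF lay below LF without overlap, and Hspe1 fell by 0.35 ± 0.09 in HF (adjusted p = 0.00513) and by 0.53 ± 0.09 in HFLF (adjusted p = 0.000916). Hspd1, the chamber itself, stood at 256, 290 and 315 CPM in HFLF livers and at 277, 307 and 333 CPM in HF livers, against 293, 339 and 401 CPM in LF livers. It did not pass in HF (-0.17 ± 0.08, adjusted p = 0.107), though it passed without LF library 1 (-0.21, adjusted p = 0.0453) and without LF libraries 1 and 2 (-0.25, adjusted p = 0.0366). It fell by 0.25 ± 0.08 in HFLF (adjusted p = 0.0277). That last call was lost without LF library 3 or 6 (-0.21 and -0.22), without HFLF library 3 or 5 (-0.24 and -0.22), with upper-quartile factors (-0.19) and in a fit of only these groups (-0.25, adjusted p = 0.0584). By exact match, Hspd1 and Hspe1 hold the run of heat shock units printed above, and Hspa1b and Hsph1, with the larger fold changes, hold 1 pair each. Hspb1, at -1.22 in HF, holds more than 1 pair. Units with a changed letter were not searched, so these matches may understate the elements. Their part in the fold changes was not tested.

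In all, every HF library lay below every LF library for 3 of the 9 members (Hspa8, Hsp90aa1 and Hsp90ab1), as for 5.89% of all liver genes. Every HFLF library lay below every LF library for 4 (Hspa8, Hsph1, Hsp90ab1 and Hspe1), as for 3.37% of all genes.

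**Figure D2:**
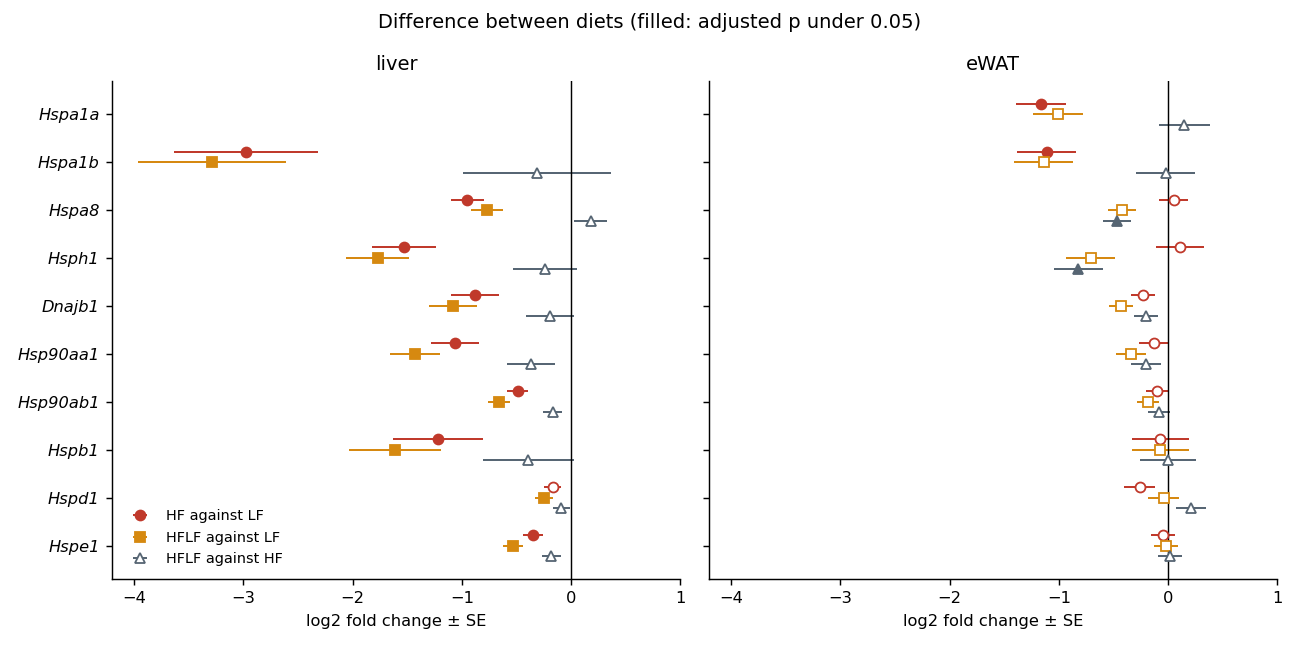
Log2 fold change (± SE, n = 6 libraries per diet) of each member between diets in liver (left) and eWAT (right); filled symbols passed an adjusted p of 0.05. In liver the HF and HFLF symbols against LF lie left of 0, from -0.17 for Hspd1 to -3.29 for Hspa1b, while in eWAT the filled symbols are those of Hspa1a and Hspa1b in HF against LF and of Hsph1 and Hspa8 in HFLF against HF.

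The LF livers differed among themselves. For 4 of the 9 members (Hspa1b, Hspa8, Hsph1 and Dnajb1) the 3 highest LF libraries were 1, 2 and 6, and for 5 (Hsph1, Hsp90aa1, Hsp90ab1, Hspe1 and Hspb1) the lowest was library 5. Hspd1 ran otherwise, with 293 and 320 CPM in LF libraries 1 and 2 and 401 CPM in library 3. Other gene groups, also listed with earlier results of these data known, moved with the LF libraries as well. The 14 acute phase and metallothionein genes, which the liver makes in inflammation, all fell in HF and in HFLF. Their sum was 15229 to 19380 CPM in HFLF and 12416 to 18658 CPM in HF, and in LF libraries 1 to 6 it was 35910, 42994, 52356, 52281, 20423 and 16002 CPM. Of 16 immediate early genes, transcribed within minutes of a stimulus, 13 fell in HF and 15 in HFLF. Their sum was 298 to 423 CPM in HFLF and 262 to 495 CPM in HF, and in LF libraries 1 to 6 it was 2151, 1476, 706, 654, 604 and 433 CPM. The clock output gene Dbp stood at 88.2 to 170 CPM in HFLF, at 131 to 182 CPM in HF, and at 2.56, 5.15, 73.3, 62.9, 90.8 and 133 CPM in LF libraries 1 to 6. LF library 6 thus held 39.7 CPM of Hspa1b and 1111 CPM of Hspa8 with 0.892 CPM of Mt2 and the lowest immediate early sum of the LF livers. The part of these groups in the chaperone result was not tested.

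Without LF libraries 1 to 4, every member kept a negative log2 fold change in both comparisons, with 2 LF libraries left. In HF against LF, 2 members then passed, Hspa8 (-0.95, adjusted p = 0.0131) and Dnajb1 (-0.85, adjusted p = 0.0386), among 297 genes called in all. Hspa1b stood at -2.03 (adjusted p = 0.053), Hsph1 at -1.19 (0.104), Hsp90aa1 at -0.81 (0.196) and Hspb1 at -0.54 (0.631). In HFLF against LF, Dnajb1 passed (-1.05, adjusted p = 0.0456), among 26 genes called. The others stood at -0.77 for Hspa8, -0.63 for Hsp90ab1, -1.43 for Hsph1, -0.44 for Hspe1, -1.18 for Hsp90aa1, -2.34 for Hspa1b, -0.92 for Hspb1 and -0.31 for Hspd1, with adjusted p between 0.0733 and 0.452. Without LF libraries 1 and 2, 7 members passed in HF against LF, among 2742 genes, and 8 in HFLF against LF, among 1396 genes. Hspa1b then stood at -1.48 in HF and -1.79 in HFLF. Hepatocyte markers were lower in HF for 5 of 10 genes and higher for 1, with sums of 81981 to 103250 CPM in HF and 95920 to 124510 CPM in LF. All 5 adipocyte markers tested, of 9 in the list, rose in HF livers, with sums of 48.5 to 256 CPM in HF and 27.8 to 49.3 CPM in LF. No marker of either list stood at 0 in a liver library, and their part in the result was not tested.

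**Figure D3:**
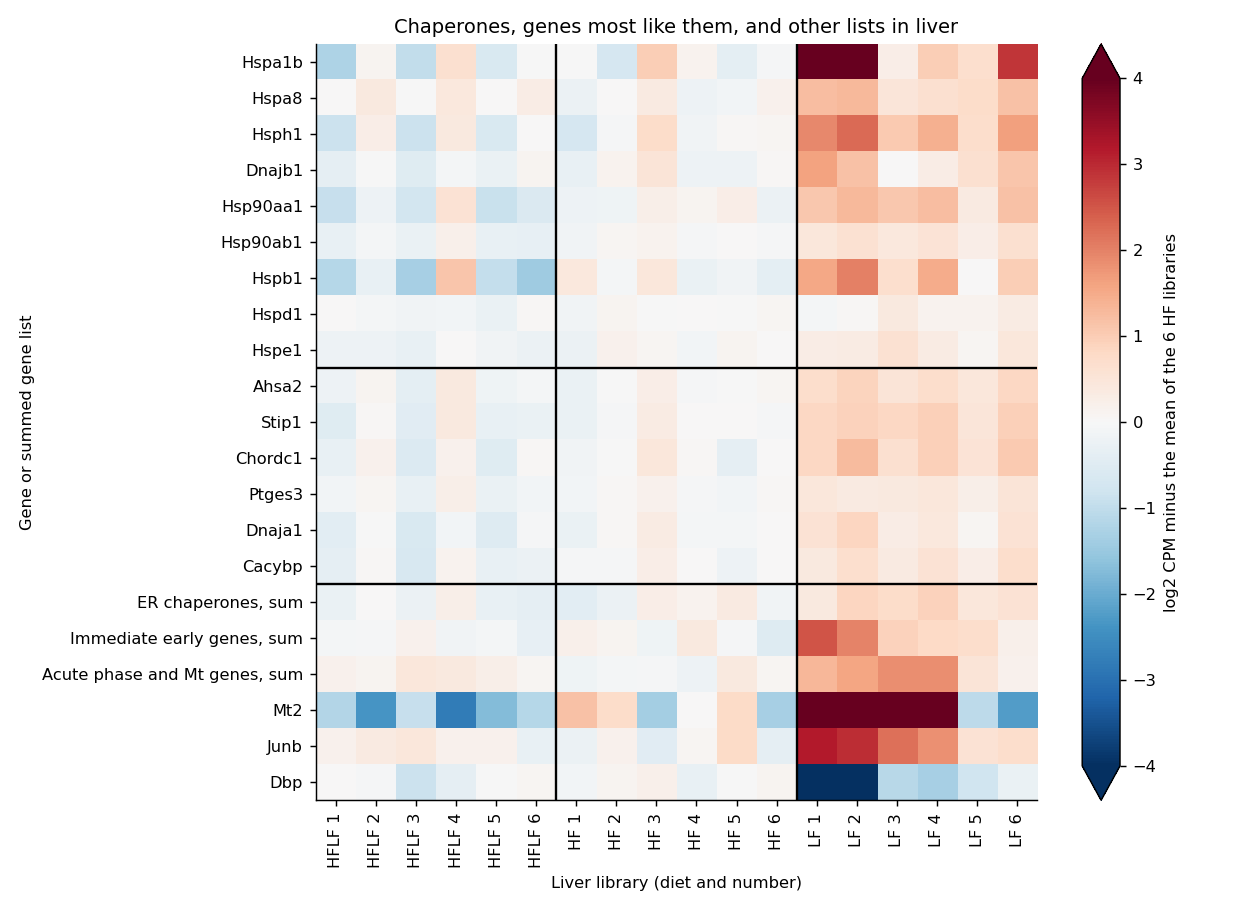
Levels in each of the 18 liver libraries as log2 CPM minus the mean of the 6 HF libraries, with colours ending at 4, for 9 members (top), the 6 genes most like their mean (middle) and other genes and summed lists (bottom). LF libraries 1 and 2 are darkest for Hspa1b, Hsph1 and the immediate early genes, whereas Mt2 is high in LF libraries 1 to 4 and low in 5 and 6.

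Between the groups that had eaten high-fat diet, 0 of 9 members passed in liver, HFLF against HF, and 0 had an unadjusted p under 0.05. Of all liver genes, 5.23% passed in this comparison. DESeq2 called 0 members and limma voom 1, Hsp90aa1 (-0.59, adjusted p = 0.0361). The estimates were negative for 8 of 9 members, with a median of -0.19, against 0.0 for all genes. Hsp90aa1 had 76.2, 90.5 and 211 CPM in HFLF livers, against 122, 140 and 171 CPM in HF livers, and a log2 difference of -0.37 (95% interval -0.81 to 0.06). Without HFLF library 4 it passed (-0.65, adjusted p = 0.041). The interval ran from -1.65 to 1.03 for Hspa1b, from -0.81 to 0.32 for Hsph1 and from -0.35 to 0.02 for Hsp90ab1. For Hspe1 it ran from -0.35 to -0.01 by the normal quantile, around -0.18, with an unadjusted p of 0.0522 (adjusted p = 0.227). Hspa8 was the exception in sign, at 0.18 (-0.11 to 0.47). These intervals do not show that the diets left the same levels.

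Other chaperone genes in liver were read by list, beside the 18.5% of all genes that fell in HF and the 12.4% that fell in HFLF. These lists too were chosen with earlier results of these data known, so their counts are descriptive. Of 16 HSP90 cochaperone genes, 9 fell in HF and 11 in HFLF against LF, and 0 rose, with medians of -0.32 and -0.43. Stip1, the adaptor that joins HSP70 to HSP90, fell by 0.83 ± 0.13 in HF and by 0.98 ± 0.14 in HFLF. Chordc1, an HSP90 partner, fell by 0.88 ± 0.15 in HF and by 1.02 ± 0.15 in HFLF, and Ahsa2, of the HSP90 ATPase activator family, by 0.68 ± 0.11 and 0.73 ± 0.11. Of 16 other cytosolic J-domain genes, 7 fell in each comparison and 0 rose, among them Dnaja4 (-1.17 ± 0.24 in HF and -1.08 ± 0.24 in HFLF). Of 9 HSP70 exchange factors and cofactors, 2 fell in HF, a share near that of all genes, and in HFLF 5 fell and 1, Bag4, rose. Bag3, which links HSP70 to selective autophagy and small heat shock proteins, fell by 1.18 ± 0.17 in HF (adjusted p = 0.000152) and by 1.23 ± 0.17 in HFLF (adjusted p = 0.000388).

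The rest of the chaperone network was mixed. Of the other HSP70 and HSP110 genes, 4 of 8 fell in each comparison, with Hspa4l, another HSP110, at -0.70 ± 0.15 in HF and -0.90 ± 0.15 in HFLF, while 1 rose in HF and 2 in HFLF, among them Hspa12a (1.03 ± 0.23 in HFLF). In the cytosolic chaperonin TRiC and its partner prefoldin, 8 of 14 genes fell in each comparison and 0 rose, with Cct5 at -0.47 ± 0.06 in HF and Cct3 at -0.56 ± 0.08 in HFLF. In the mitochondrion, 4 of 14 other chaperone and protease genes rose and 2 fell in HF, and 2 rose and 1 fell in HFLF, with Grpel2, an exchange factor of the mitochondrial HSP70, at 0.44 ± 0.14 in HF and 0.73 ± 0.14 in HFLF. In the endoplasmic reticulum, 15 of 18 chaperone genes fell in HF and 16 of 18 in HFLF, with Hspa5 at -1.11 ± 0.22 in HF and -1.13 ± 0.22 in HFLF. Heat shock factors and their regulators went both ways. Of 5 such genes tested, 2 rose and 2 fell in HF, and 1 rose and 2 fell in HFLF. The medians were -0.01 and -0.14. Hsf1 itself fell by 0.38 ± 0.06 in HF and by 0.24 ± 0.06 in HFLF. Ier5, an early response gene whose protein promotes HSF1 activity, fell by 1.24 ± 0.34 in HF and by 1.5 ± 0.35 in HFLF. All these comparisons use the same LF libraries as the members.

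**Figure D4:**
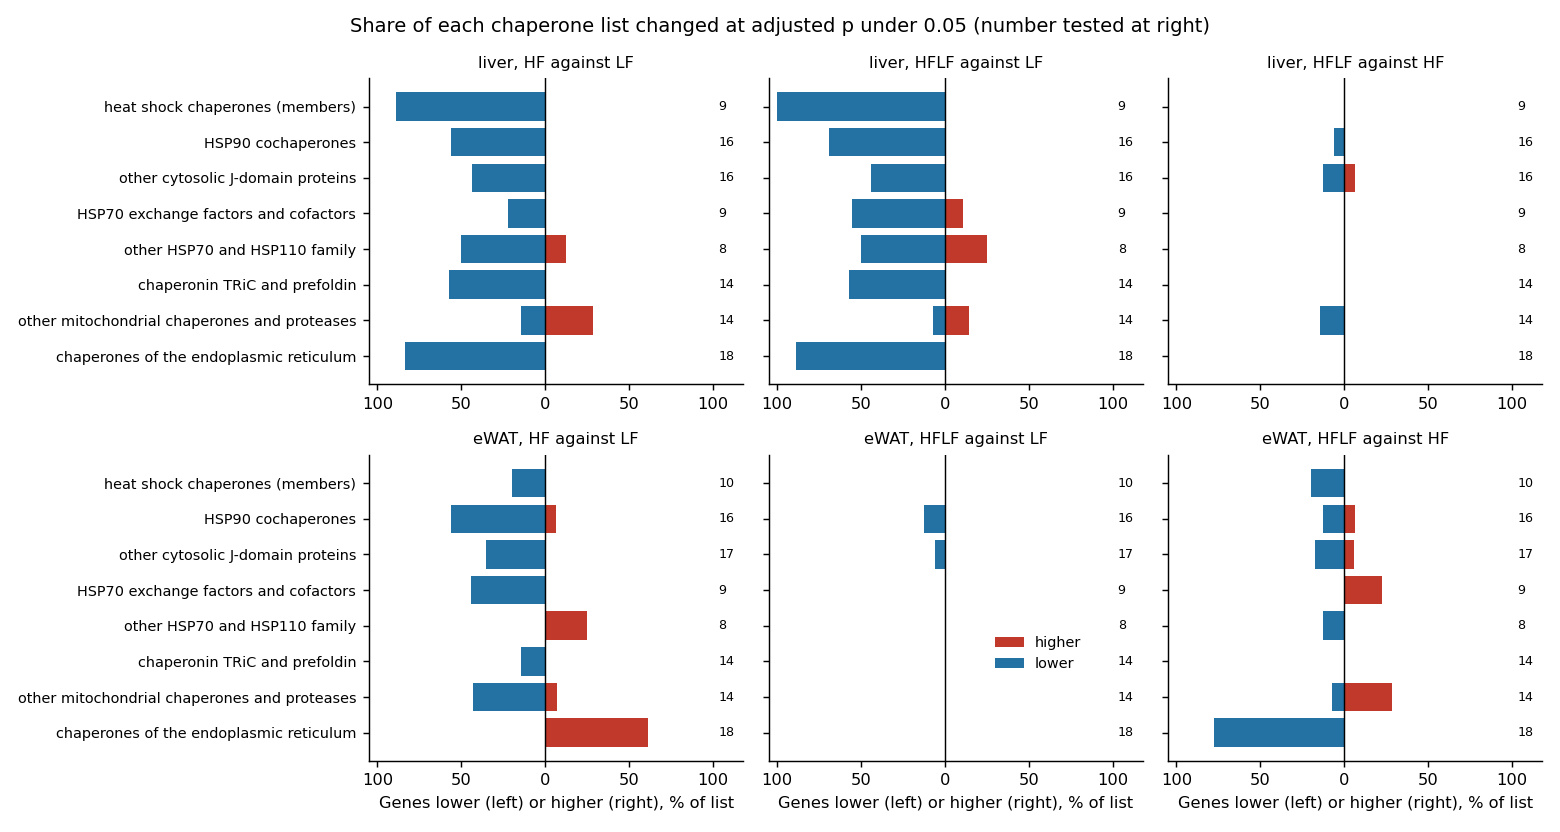
Share of each chaperone list that was lower (left of 0) or higher (right of 0) at an adjusted p under 0.05, for each comparison in liver (top) and eWAT (bottom), with the number of genes tested at the right of each bar. The endoplasmic reticulum list is lower in liver (15 of 18 genes in HF and 16 of 18 in HFLF, against LF) and higher in HF eWAT (11 of 18).

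Across the 18 liver libraries, the genes most like the mean of the 9 members were 5 chaperone or cochaperone genes and Cacybp, by correlation of log2 CPM among 9877 genes. Ahsa2 came first (r = 0.98), then Stip1 (0.97), Chordc1 (0.96), Ptges3, the HSP90 cochaperone p23 (0.95), Dnaja1, a J-domain gene (0.95), and Cacybp, a partner of ubiquitin ligases (0.94). Stip1 averaged 82.0 CPM in HFLF, 91.4 in HF and 162 in LF. Each member was also compared with the mean of the others, and r was 0.97 for Hsph1, 0.96 for Hsp90ab1 and 0.51 for Hspd1, the lowest. These points share their libraries and the LF spread described above, and carry no test. In eWAT, among 11507 genes, the closest were Stip1 (0.86), Apba3 (0.85), Chordc1 (0.82), Chchd4 (0.80), Cherp (0.79) and Ppid (0.79). There r with the mean of the other members was 0.88 for Hsp90ab1 and lay between 0.26 for Hspb1 and 0.58 for Hspa8 for the rest.

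In eWAT, 2 of 10 members, the inducible pair Hspa1a and Hspa1b, fell in HF against LF and 0 rose. The share that fell was near that of all eWAT genes, of which 20.2% fell and 20.6% rose. The median of the members was -0.11, against -0.02 for all genes. Hspa1a stood at 2.88, 3.37 and 4.26 CPM in HFLF eWAT and at 1.98, 3.28 and 4.05 CPM in HF eWAT, against 4.46, 6.15 and 11.3 CPM in LF eWAT. It did not overlap between HF and LF, as for 6.39% of all genes, nor between HFLF and LF. Hspa1b stood at 6.04, 6.87 and 8.76 CPM in HFLF eWAT and at 3.77, 6.55 and 11.6 CPM in HF eWAT, against 10, 14.4 and 25.8 CPM in LF eWAT. Only HF library 3, at 11.6 CPM, reached into the LF range. In HF against LF the log2 fold change was -1.16 ± 0.23 for Hspa1a (adjusted p = 0.000964) and -1.11 ± 0.27 for Hspa1b (adjusted p = 0.00352).

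**Figure D5:**
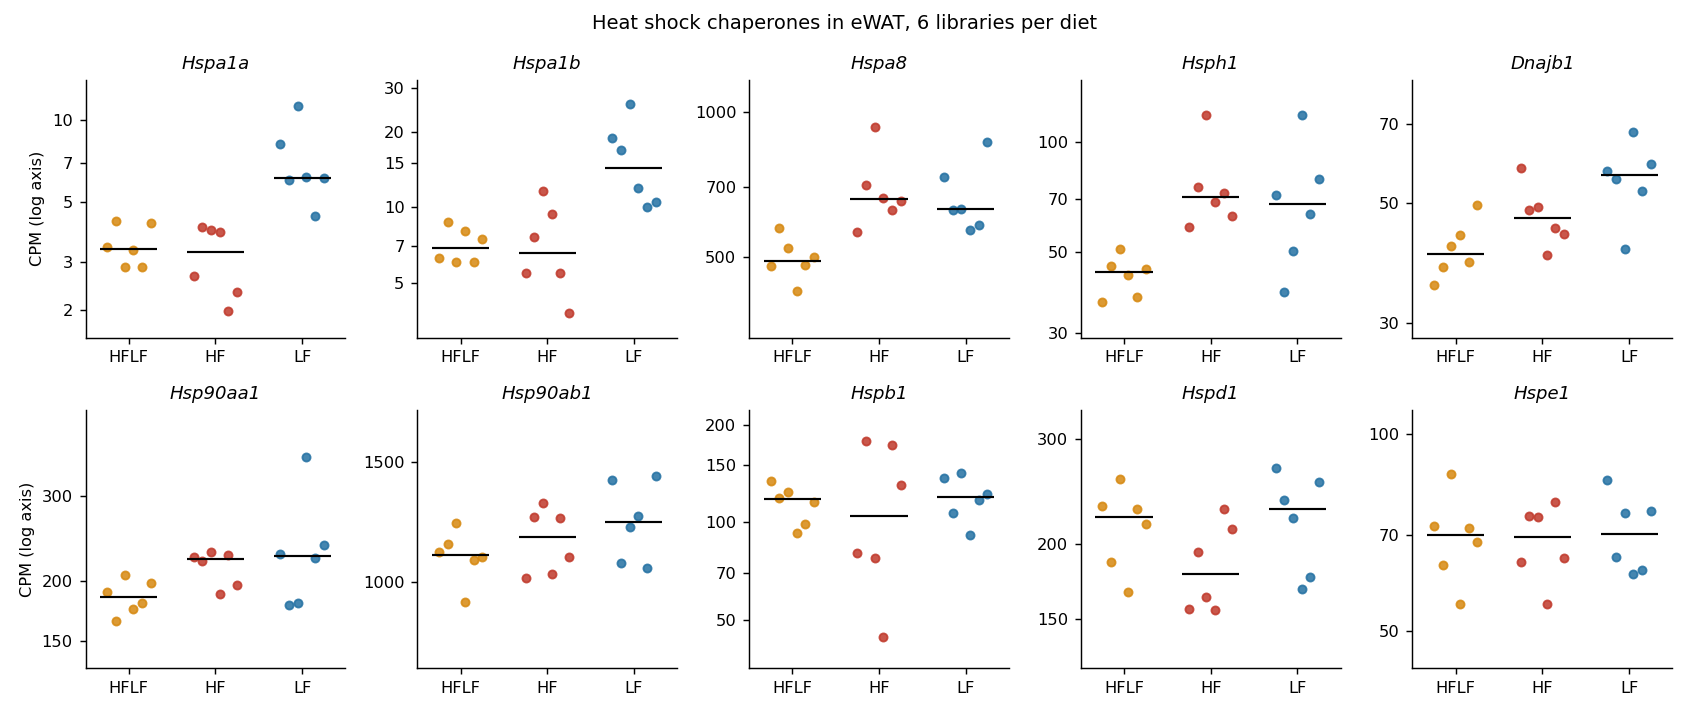
Level of each member in eWAT, in CPM on a log axis, for the HFLF, HF and LF diets; each point is 1 library (in order of its number from left to right) and each bar the median of 6. Hspa1a lies between 1.98 and 4.26 CPM in HFLF and HF and at 4.46 CPM or above in LF, and Hsp90aa1 in LF library 4 stands at 362 CPM.

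Because the pair shares most of its sequence, it was also read as 1 gene. The sum of Hspa1a and Hspa1b averaged 10.6 ± 1.67 CPM in HFLF and 10.4 ± 3.73 CPM in HF, against 22.7 ± 8.38 CPM in LF (SD, n = 6). Hspa1b made up 64.1 to 70.7% of it in HFLF, 61.8 to 74.6% in HF and 63.3 to 73.6% in LF, ranges that overlap. The summed gene fell by 1.13 ± 0.25 in HF against LF (adjusted p = 0.00172) and did not pass in HFLF against LF (-1.10 ± 0.25, adjusted p = 0.0546).

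The other 8 members did not pass in HF against LF in eWAT. Hspa8 had 565, 659 and 932 CPM in HF eWAT, against 570, 628 and 864 CPM in LF eWAT, and a log2 difference of 0.05 (95% interval -0.19 to 0.30). The interval was -0.40 to 0.13 for Hsp90aa1 and -0.30 to 0.10 for Hsp90ab1. Hspb1 had the widest range, with 44.4, 105 and 178 CPM in HF eWAT, against 91.2, 120 and 142 CPM in LF eWAT. Dnajb1 (-0.23 ± 0.11, adjusted p = 0.111) passed without LF library 3 (-0.28) or HF library 1 (-0.29). Without the 6 libraries with transcripts of other organs, 4 members fell: Hspa1a (-1.06), Hspa1b (-1.01), Hspd1 (-0.41, adjusted p = 0.0425) and Dnajb1 (-0.33, adjusted p = 0.0118). Of all 16690 genes, 2433 fell in that fit.

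Cell type markers moved in the same libraries. Of 9 macrophage markers, 8 rose in HF eWAT, with sums of 1188 to 6922 CPM in HF and 514 to 949 CPM in LF. Of 9 adipocyte markers, 5 fell and 1 rose, with sums of 12592 to 32953 CPM in HF and 27774 to 51663 CPM in LF, and of 7 fibroblast and progenitor markers 4 rose. None of these markers stood at 0 in an eWAT library. HF library 3, with the highest macrophage and the lowest adipocyte sum, held the highest Hsph1 (119 CPM), Hspa8 (932 CPM) and Hspa1b (11.6 CPM) of the HF group. LF library 4 held the highest Hsp90aa1 of all (362 CPM) and the highest LF levels of Hsph1 (119 CPM) and Dnajb1 (67.7 CPM), together with 250 CPM of testis germ cell transcripts. HF library 1 held 824 CPM of those transcripts with 224 CPM of Hsp90aa1, and HFLF library 6 held 330 CPM with 198 CPM. Dnajb1 was the highest of its group in all 3 of these libraries, at 49.6 CPM in HFLF library 6, 58.2 CPM in HF library 1 and 67.7 CPM in LF library 4. Their part in the chaperone levels was not tested.

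In HFLF against LF, 0 of 10 members passed in eWAT with edgeR, where 0.563% of all genes did, and 6 had an unadjusted p under 0.05. DESeq2 called 5 members and limma voom 4, all lower, among 704 and 679 genes. All 10 estimates were negative, with a median of -0.38, against -0.02 for all genes. Hspa1a and Hspa1b lay below LF in every HFLF library, as 0.665% of all genes did, with log2 fold changes of -1.01 ± 0.23 (adjusted p = 0.0592) and -1.14 ± 0.27 (adjusted p = 0.0645). Both passed without LF library 5 (-1.11, adjusted p = 0.0251, and -1.24, adjusted p = 0.032). Dnajb1 had 35.3, 40.4 and 49.6 CPM in HFLF eWAT, against 41.2, 56.4 and 67.7 CPM in LF eWAT, and stood at -0.43 ± 0.11 (adjusted p = 0.0765). DESeq2 called Hspa1a, Hspa1b, Dnajb1, Hspa8 and Hsph1 (adjusted p of 0.00299, 0.00434, 0.0114, 0.023 and 0.0436), and limma voom called these except Hsph1.

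In HFLF against HF, 2 of 10 members fell in eWAT and 0 rose. The share that fell was near that of all genes, of which 14.7% fell and 10.7% rose. Hsph1 had 36.3, 44.1 and 50.9 CPM in HFLF eWAT, against 58.7, 70.6 and 119 CPM in HF eWAT. The groups did not overlap, as for 4.67% of all genes that were lower in every HFLF library. Hsph1 fell by 0.82 ± 0.22 (adjusted p = 0.013). Hspa8 had 426, 491 and 575 CPM in HFLF eWAT, against 565, 659 and 932 CPM in HF eWAT, and fell by 0.47 ± 0.13 (adjusted p = 0.0117). HFLF library 2, at 575 CPM, was the 1 HFLF library above the lowest HF library. The inducible pair did not pass, at 0.15 ± 0.23 for Hspa1a and -0.02 ± 0.27 for Hspa1b. Without the 6 libraries named above, Hsph1 passed (-0.90, adjusted p = 0.0417) and Hspa8 did not (-0.48, adjusted p = 0.0591), and 768 of all 16690 genes fell. Of 9 macrophage markers, 8 fell in this comparison, with sums of 878 to 2472 CPM in HFLF and 1188 to 6922 CPM in HF, and their part in it was not tested. With upper-quartile factors the calls over all genes were 2352 higher and 2033 lower, against 1784 and 2458.

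Other chaperone lists in eWAT, chosen with earlier results of these data known, held genes called in both directions. Of 18 chaperones of the endoplasmic reticulum, 11 rose and 0 fell in HF against LF, and 14 fell and 0 rose in HFLF against HF. Of all eWAT genes, 20.6% rose in HF against LF and 14.7% fell in HFLF against HF. Of 8 other HSP70 and HSP110 genes, 2 rose and 0 fell in HF against LF, a share near that of all genes. Pdia3, a disulfide isomerase, stood at 0.56 ± 0.10 in HF against LF and at -0.59 ± 0.10 in HFLF against HF, and Sdf2l1, a partner of the endoplasmic reticulum HSP70, at 1.37 ± 0.26 in HF against LF. Of 16 HSP90 cochaperones, 9 fell and 1 rose in HF against LF, led by Cdc37l1 (-0.43 ± 0.07) and Ptges3 (-0.37 ± 0.07), where 20.2% of all genes fell. Of 17 other cytosolic J-domain genes 6 fell, of 9 exchange factors and cofactors 4 fell, and of 14 TRiC and prefoldin genes 2 fell, and 0 of these rose. Fkbp5, which binds the glucocorticoid receptor complex and is induced by glucocorticoids, fell by 1.27 ± 0.26 in HF and by 1.23 ± 0.26 in HFLF against LF (adjusted p = 0.00127 and 0.045). Of 14 other mitochondrial chaperones and proteases, 6 fell and 1 rose in HF against LF, and 4 rose and 1 fell in HFLF against HF. Clpp, the matrix protease subunit, stood at -0.90 ± 0.13 in HF against LF and at 0.57 ± 0.13 in HFLF against HF.

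The tissues were compared directly by an interaction in 1 fit over 13206 genes found in both tables. In HF against LF the change in liver was lower than that in eWAT for 4 of 9 members, as for 21% of all genes (45.6% differed in either direction). The differences in log2 fold change, liver minus eWAT, were -1.81 ± 0.69 for Hspa1b (adjusted p = 0.0311), -1.57 ± 0.37 for Hsph1 (0.000962), -0.94 ± 0.20 for Hspa8 (0.000349) and -0.86 ± 0.27 for Hsp90aa1 (0.00897). In HFLF against LF, 3 of 9 members differed, as for 3.6% of all genes in that direction: Hspb1 (-1.5 ± 0.49, adjusted p = 0.0489), Hsp90aa1 (-1.05 ± 0.27, adjusted p = 0.0153) and Hspe1 (-0.47 ± 0.14, adjusted p = 0.0314). In HFLF against HF, Hspa8 differed the other way (0.64 ± 0.20, adjusted p = 0.0243), as for 9.18% of all genes. Hspd1 had a difference of 0.14 ± 0.16 in HF against LF. The Hspa1b value covers 1 gene of the inducible pair, since Hspa1a is not among the liver genes.

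Several of these calls depended on single libraries. Without LF libraries 1 to 4 of the liver, 2 members differed in HF against LF (Hsph1 at -1.25 and Hspa8 at -0.97) and 0 in HFLF against LF, where 1 gene was called in all. The Hspa1b call in HF was lost without liver LF library 1 or 2 (-1.43 and -1.34), liver HF library 2 (-1.70) or eWAT HF library 3 or 4 (-1.63 and -1.72). It was also lost without the 6 eWAT libraries (-1.96, adjusted p = 0.0676) and in limma voom, with the replicate block (-1.20, adjusted p = 0.27) or with no block (-1.21, adjusted p = 0.284). The Hspe1 call in HFLF was lost without liver LF library 3 (-0.41), liver HFLF library 3 (-0.44), eWAT LF library 4 or 5 (-0.44 and -0.43) or eWAT HFLF library 3 (-0.40). The Hspb1 call in HFLF was lost in 18 of the 24 fits without 1 library (-1.56 to -1.30 in those 18), and the value was -2.10 without liver HFLF library 4. The Hspa8 call in HFLF against HF was lost without eWAT HF library 3 (0.53). Without liver LF library 5, 7 members differed in HF and 6 in HFLF, against LF. Calls over all 13206 genes rose too, to 6191 and 1771, from 6019 and 1130 with every library. In HFLF against LF, 6 members differed without liver HFLF library 4, among 1240 genes called. In the same comparison 1 member differed without liver HFLF library 3, eWAT LF library 5 or eWAT HFLF library 3, among 884, 1085 and 817 genes called.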

How the data were processed

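RNA of 36 liver and eWAT libraries was sequenced by the submitters, who used STAR and GRCm38.p6 per the submitters' processing notes; no source used here gives the counter, annotation or strand setting. The values used are the whole-number counts per gene deposited by the authors, 1 table per tissue, in which every gene exceeded 0.5 CPM in at least 6 of 18 libraries. The deposited RPKM tables were not used. Groups were taken from the labels. The members and gene lists were chosen with earlier results of these data known. Members that passed are named in every comparison, and values of the others are given in part. Counts are given for some of the other lists, with up to 4 genes of smallest p named. Counts of the clock, endothelial, red blood cell and other small heat shock protein lists are among those not printed. edgeR 4.0.16 (R 4.3.3) fitted the 3 diets of a tissue with TMM factors and a robust quasi-likelihood test, with Benjamini-Hochberg adjustment over all genes and a threshold of 0.05; the tissue difference used 1 fit over 36 libraries. The 95% intervals are the estimate ± 1.96 SE. CPM per kb uses GENCODE exon lengths, and likeness uses log2 CPM. Depth was 11.7 to 23.3 M counts in liver and 8.94 to 31.2 M in eWAT. On simulated counts for HF against LF, the test recovered 47.8% of 1.5-fold, 74.6% of 2-fold and 97% of 4-fold changes among 14052 liver genes. Among 16690 eWAT genes it recovered 37.3%, 55.2% and 89.4%. At most 67 genes changed per fold size in the simulation, against 4891 liver and 6817 eWAT genes called in the data. The simulated libraries were also drawn independently, without libraries that stand apart. These shares are therefore not the power of the real comparisons. Alternatives were RLE and upper-quartile factors, DESeq2 1.42.0, limma 3.58.1 voom, other filters and fits, a replicate block, the HSP70 pair summed, and libraries left out. The limma voom fits without a block for the tissue difference were chosen after seeing the data.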

Additional observations from a re-analysis of the deposited data

Results flagged for a closer look

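In 57 groups of 6 libraries, 1 library stood far from the others for 6 combinations of member and group. Chance flags about 1 in 20 groups where values are normally distributed and groups are independent. Here CPM was not log-transformed and members share libraries, so the 6 cannot be set against that rate. In liver the flagged combinations were Hsp90aa1 in HFLF library 4 (211 CPM), Hspb1 in the same library (56.6 CPM), Hspa1b in HF library 3 (11 CPM) and Hsp90aa1 in LF library 5, a low value (184 CPM). In eWAT they were Hsph1 in HF library 3 (119 CPM) and Hsp90aa1 in LF library 4 (362 CPM).

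The change differed between liver and eWAT, by the interaction in edgeR's quasi-likelihood fit, for 8 combinations of member and comparison. In HF against LF the difference in log2 fold change, liver minus eWAT, was -1.57 for Hsph1, -0.94 for Hspa8, -0.86 for Hsp90aa1 and -1.81 for Hspa1b. In HFLF against LF it was -0.47 for Hspe1, -1.50 for Hspb1 and -1.05 for Hsp90aa1, and in HFLF against HF it was 0.64 for Hspa8.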

How the results depend on the processing

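Counts of members called moved most when libraries that stand apart were left out. Without liver LF libraries 1 to 4 the count was 2 in liver HF against LF and 1 in liver HFLF against LF, and for the tissue difference 2 in HF against LF and 0 in HFLF against LF. Without the 6 eWAT libraries it was 4 in eWAT HF against LF, 1 in eWAT HFLF against HF and, for the tissue difference, 3 in HF against LF and 1 in HFLF against LF. Over all genes these fits called 5203, 1390, 5201 and 311 genes, in that order. TMM within each tissue gave 6 in HF against LF and 4 in HFLF against LF for the tissue difference, and limma voom, with or without the block, 4 and 4. With DESeq2 it was 5, and with limma voom 4, in eWAT HFLF against LF; limma voom gave 1 in liver HFLF against HF. Summing Hspa1a and Hspa1b gave 1 in eWAT HF against LF, since the pair is then 1 gene. Leaving out each library in turn gave 7 to 8 in liver HF against LF, 8 to 9 in liver HFLF against LF, 0 to 1 in liver HFLF against HF, 2 to 3 in eWAT HF against LF, 0 to 2 in eWAT HFLF against LF and 2 to 2 in eWAT HFLF against HF. For the tissue difference it gave 3 to 7 in HF against LF, 1 to 6 in HFLF against LF and 0 to 1 in HFLF against HF. Calls over all genes also moved between the fits without 1 library. Except where a setting leaves out libraries or merges genes, the cause was not tested.

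Signs changed under the alternatives run only for members that did not pass the test in that comparison. In eWAT HF against LF, Hspa8 was -0.00 with upper-quartile factors, -0.02 with limma voom and -0.05 without the 6 eWAT libraries, and Hsp90aa1 was 0.00 with limma voom. In eWAT HFLF against HF, Hspb1 was -0.01 with RLE factors, -0.01 with DESeq2, -0.00 with limma voom and -0.02 without the 6 eWAT libraries, and Hspa1b was 0.04 with upper-quartile factors and 0.09 with limma voom. The tissue difference of Dnajb1 in HFLF against HF was 0.00 with TMM within each tissue and 0.05 without the 6 eWAT libraries. Leaving out each library in turn, eWAT HF against LF ran from -0.09 to 0.02 for Hspe1, -0.24 to 0.10 for Hspb1, -0.06 to 0.32 for Hsph1, -0.05 to 0.15 for Hspa8 and -0.18 to 0.03 for Hsp90aa1. eWAT HFLF against LF ran from -0.11 to 0.02 for Hspd1 and -0.11 to 0.03 for Hspe1. eWAT HFLF against HF ran from -0.07 to 0.08 for Hspe1, -0.16 to 0.17 for Hspb1 and -0.16 to 0.16 for Hspa1b, and the tissue difference of Dnajb1 in HFLF against HF from -0.08 to 0.11.

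No label says that a number marks a mouse. Between diets of a tissue, 0 to 2 of 6 libraries correlated best with their own number. Between liver and eWAT it was 1 of 6 in HFLF, 2 in HF and 5 in LF, with r of same-numbered libraries from -0.0365 to 0.155, which is a hint from the data and not from the design. The replicate block changed no count of members called, and the value of Hspa1b in eWAT HFLF against HF was 0.07 with it. Over all genes, eWAT HFLF against LF had 15 calls with the block and 94 without.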
